A study of Mus musculus with 6 samples.

Results

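Interferon-stimulated genes were examined in total RNA sequencing of mouse kidney. The set comprised 44 genes named by their GENCODE symbols as well-known targets of interferon, among the 56691 genes in the count files, and all 44 were found. The mice were C57BL/6 males from in-house colonies, 9 weeks old at the start. Of these, 3 received saline (control) and 3 received 4 weekly intraperitoneal injections of cisplatin at 8 mg per kg (the sample titles spell it "Ciaplatin"), and all kidneys were taken at the end of a period of 7 weeks. Each library came from the whole kidney of 1 mouse, without pooling, and no allele or second agent separated the groups. Cisplatin is a platinum drug that crosslinks DNA and injures the proximal tubule, and the repeated low dosing serves as a model of chronic kidney disease.

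Interferons are secreted proteins that warn tissue of infection. Type I interferons bind a receptor that acts through the kinases JAK1 and TYK2, which phosphorylate transcription factors of the STAT family, STAT2 among them. With IRF9 these form a complex, ISGF3, that binds the interferon-stimulated response element (ISRE) in target promoters, while type II interferon acts on a different site, the gamma-activated sequence (GAS). The products of the target genes sense foreign nucleic acids, block translation and replication of viruses, attack intracellular pathogens, or feed back on the pathway. Some of these genes also respond to other signals, among them IRF3, NF-kappaB and STAT3.

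The libraries held 21891855 to 26627554 read pairs counted on the strand of the transcript. Of the kidney's own cells, the proximal tubule was well represented in every library, and its 10 markers summed to 11011 to 12470 CPM, counts scaled to library size, in control and 4876 to 5052 CPM in cisplatin. The TMM factors, which correct library totals for composition, ranged from 0.844 to 0.894 over the controls and from 1.05 to 1.26 over the cisplatin mice, so that they differed between the groups. CPM below use the corrected totals.

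Of the 44 genes, 43 passed the filter on low counts and were tested with edgeR's quasi-likelihood F test. At an adjusted p (Benjamini-Hochberg) under 0.05, 20 were higher with cisplatin, 4 were lower and 19 did not pass. The background was large, since 24.5% of the 15662 genes tested were higher and 22.8% were lower. Among the interferon-stimulated genes, 46.5% were higher and 9.30% were lower. Most rises were small, between 1.22-fold and 3.11-fold with a median of 1.39-fold. Only Sting1, Ifit3b, Ifitm1, Oasl1 and Ifit3 rose by 2-fold or more, which is 5 of 43 against 9.78% of all genes. Ifi44 alone fell by at least that much, where 5.64% of all genes did. The median log2 fold change was 0.29 over the 43 genes and 0.05 over all genes tested.

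Without reference to a test, the 3 cisplatin libraries all exceeded the 3 controls in 20 of the 43 genes, against 30.2% of all genes. All cisplatin libraries lay below all controls in 5, against 27.6% of all genes, and the groups overlapped in 18. When scaled by library totals alone, all genes shifted up in cisplatin to a median log2 fold change of 0.48. On that scale 8508 genes were higher and 1375 lower, where TMM gave 3841 and 3578, and of the interferon-stimulated genes 28 were higher and 2 lower with a median of 0.72. A change in RNA amount in kidney tissue cannot be told apart from a change in the number of the cells that hold it.

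**Figure D1:**
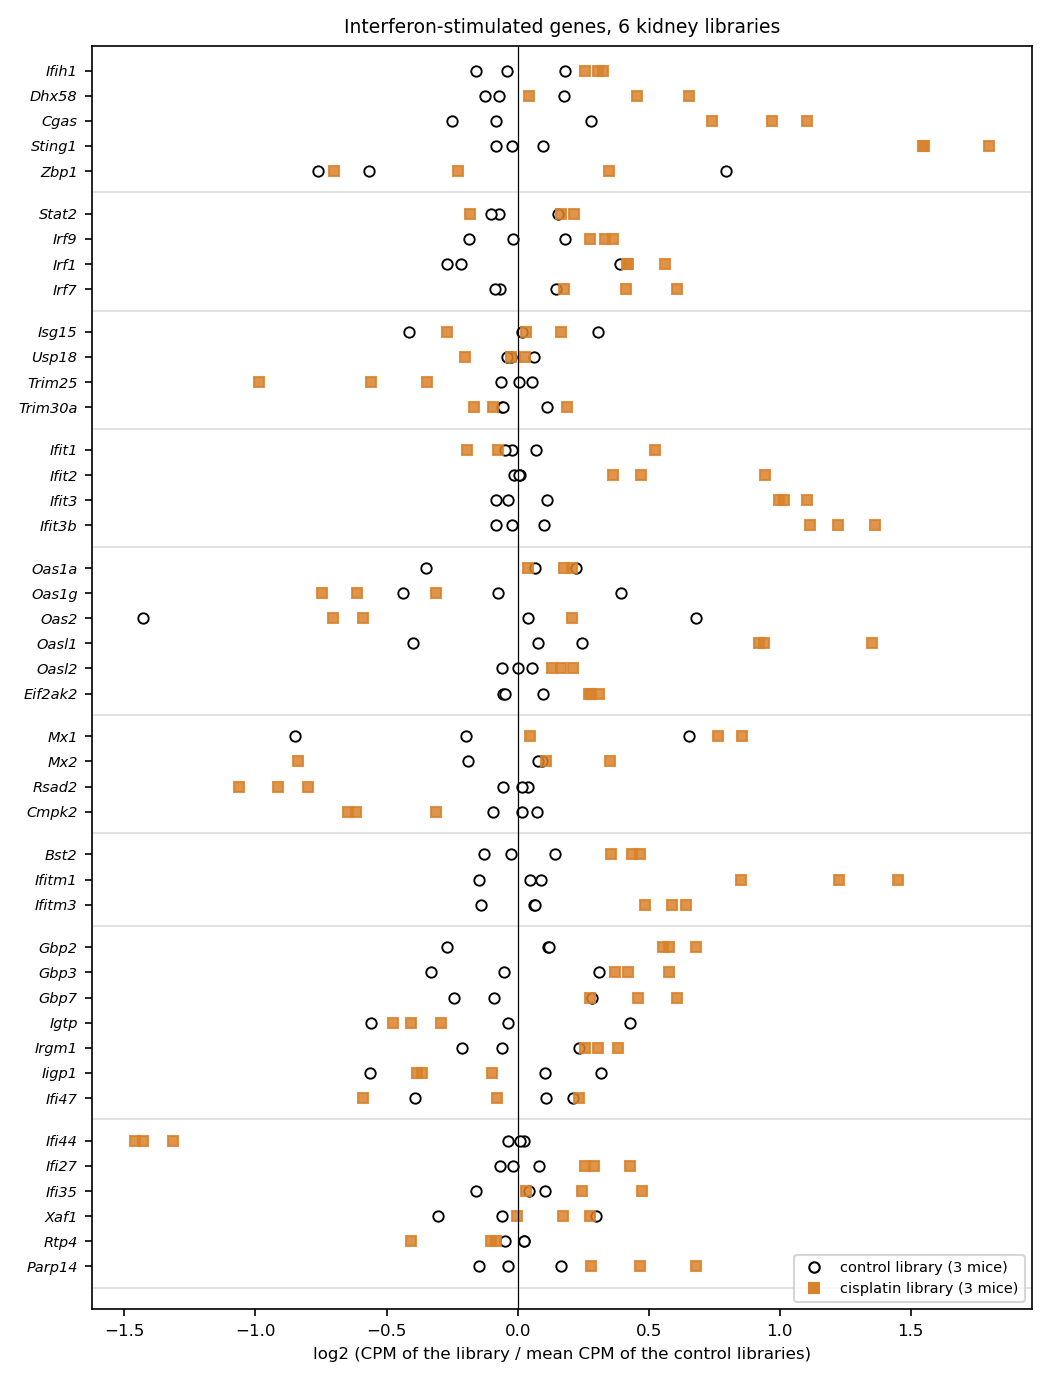
Each row is 1 of the 43 tested genes, grouped by role, and the x axis is the log2 ratio of a library's CPM to the mean CPM of the 3 control libraries. Open circles are control libraries and orange squares cisplatin libraries. The squares of Sting1, Ifit3, Ifit3b, Ifitm1 and Oasl1 stand far to the right of the circles and those of Ifi44 and Rsad2 far to the left, while for Isg15, Usp18 and Zbp1 the groups overlap.

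A motif that defines these genes in textbooks was looked up in their promoters, to see whether it separated those that rose from those that did not. The RefSeq promoter table (GRCm38.p6, 250 bases before to 50 after each start) held 33 of the 44 genes with 38 promoters, all of which were placed on GRCm39 by exact match. The core of the ISRE, read here as GAAA and GAAA with 2 bases between them on either strand, occurred in 19 of the 33 genes (57.6%) and in 3.99% of all 27025 genes with a promoter. It was found in 10 of 17 genes that rose and in 7 of 11 that did not pass the test, and of the 4 that fell it was found in Rsad2. Where CT had to follow the second GAAA, it was found in 8 of 17, 4 of 11 and 0 of 4. The GAS motif, TTC and GAA with 3 bases between them, occurred in 9 of 33 genes (27.3%) against 9.55% of all genes. By call it was found in 6 of 17 that rose, 3 of 11 that did not pass and 0 of 4 that fell. Differences between these small groups were not tested. A match is a description of the letters, not evidence of a bound site.

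Shown here are stretches of at most 30 bases that lie upstream of the annotated gene, 5′ to 3′ on the gene's strand, on GRCm39, with the ISRE core in capitals (read as TTTC pairs where it lies on the other strand). The first 2 belong to genes that rose by 2-fold or more, Bst2 rose less, Ifit1, Isg15 and Stat2 did not pass, and Rsad2 fell.
Ifit3 (chr19:34560763-34560792, plus strand): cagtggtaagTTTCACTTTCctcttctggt
Ifit3b (chr19:34585159-34585188, plus strand): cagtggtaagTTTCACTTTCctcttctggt
Bst2 (chr8:71990224-71990253, minus strand): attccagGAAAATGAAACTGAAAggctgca
Ifit1 (chr19:34618175-34618204, plus strand): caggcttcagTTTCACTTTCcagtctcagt
Isg15 (chr4:156285328-156285357, minus strand): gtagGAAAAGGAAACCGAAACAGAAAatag
Stat2 (chr10:128106135-128106164, plus strand): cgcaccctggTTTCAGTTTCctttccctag
Rsad2 (chr12:26506552-26506581, minus strand): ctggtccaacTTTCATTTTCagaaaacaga
The stretches of Ifit3 and Ifit3b are the same, and the ISRE of Ifit1 has the same 10 letters. The promoter of Isg15 holds 3 overlapping copies of the core.

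Among the sensors of foreign RNA and DNA and their adaptor, 3 of 5 genes rose and none fell. Over all genes tested 24.5% rose and 22.8% fell, which is the background for the counts by role below. Sting1 encodes STING, the membrane adaptor through which cytosolic DNA triggers interferon and NF-kappaB signalling. Its CPM were 1.93, 2.19 and 2.02 in control mice and 7.13, 5.998 and 5.98 with cisplatin. The groups were far apart, and the log2 fold change of 1.64 ± 0.151 (SE, 3.11-fold, adjusted p = 1.1e-05) was the largest of the 43 genes. Cgas encodes the enzyme that makes the messenger for STING upon binding DNA. Its CPM were 0.378, 0.487 and 0.337 in control and 0.861, 0.670 and 0.785 in cisplatin, with no overlap. These levels rest on 7 to 10 counts per control library and 18 to 25 per cisplatin library, and the 1.92-fold rise (log2 0.94 ± 0.298, adjusted p = 0.024) lost its call without control replicate 1 or 3 or cisplatin replicate 1 or 3 (adjusted p up to 0.10).

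Ifih1, which encodes the RNA sensor MDA5, had 15.8, 18.5 and 14.6 CPM in control and 20.1, 20.4 and 19.5 CPM in cisplatin. All cisplatin libraries were higher, by 1.23-fold (adjusted p = 0.037), a call that was lost without control replicate 1 or 3 or cisplatin replicate 1 or 2 (up to 0.18). Dhx58, encoding the related protein LGP2, stood at 1.47 ± 0.167 CPM (SD, n = 3) in control and 1.94 ± 0.404 CPM in cisplatin. The groups overlapped and the difference did not pass (log2 0.40 ± 0.222, adjusted p = 0.16). Zbp1, a sensor of Z-form nucleic acids that can start necroptosis, had 0.546, 1.61 and 0.625 CPM in control and 0.792, 0.570 and 1.18 CPM in cisplatin (adjusted p = 0.81), so that control replicate 2 was the highest of the 6 libraries.

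Of the transcription factors, Irf1, Irf7 and Irf9 rose and Stat2 did not pass. Irf1, a factor induced early by interferon and by NF-kappaB, had 12.1, 18.5 and 11.7 CPM in control and 20.9, 18.9 and 18.9 CPM in cisplatin. Control replicate 2 nearly reached the lowest cisplatin library, and the rise was 1.39-fold (log2 0.47 ± 0.158, adjusted p = 0.031). Irf7, which amplifies type I interferon production, went from 6.70 ± 0.612 to 8.90 ± 1.32 CPM (1.33-fold, adjusted p = 0.033). Irf9, the DNA-binding part of ISGF3, went from 10.8 ± 1.38 to 13.5 ± 0.423 CPM (1.25-fold, adjusted p = 0.037). For its partner Stat2 the means were 9.79 ± 0.971 and 10.3 ± 1.48 CPM (log2 0.08 ± 0.133, adjusted p = 0.63). Each of the 3 rises lost its call without control replicate 1 or 3 or cisplatin replicate 1, and without 1 or both of the other cisplatin libraries, with adjusted p of up to 0.13 for Irf1, 0.12 for Irf7 and 0.17 for Irf9.

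The ISG15 system and the TRIM ubiquitin ligases held no gene that rose. Isg15, a ubiquitin-like protein attached to other proteins during the interferon response and among its most sensitive markers, had 1.56, 1.90 and 1.154 CPM in control. In cisplatin it had 1.72, 1.27 and 1.57 CPM. The groups overlapped completely, and the log2 fold change was -0.02 ± 0.236 (adjusted p = 0.96), a precision set by 24 to 50 counts per library. Usp18, which removes ISG15 and damps the type I receptor, stood at 2.35 ± 0.0886 CPM in control and 2.25 ± 0.184 CPM in cisplatin (log2 -0.07 ± 0.166, adjusted p = 0.76). Trim30a, a mouse TRIM protein that restrains inflammatory signalling, had 8.16 ± 0.569 and 8.07 ± 1.07 CPM (log2 -0.02 ± 0.129, adjusted p = 0.91).

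Trim25 encodes the ligase that activates the RNA sensor RIG-I. It had 39.1, 40.5 and 37.2 CPM in control and 30.6, 26.4 and 19.6 CPM in cisplatin. Every cisplatin library was lower, and the level fell by 34.1% (log2 -0.60 ± 0.138, adjusted p = 0.0046). With library totals the log2 fold change was -0.16 and did not pass.

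In the IFIT family 3 of 4 genes rose, against 24.5% of all genes tested. Its member IFIT1 binds viral RNA lacking the cap methylation of the host. The 4 genes lie on the plus strand of chromosome 19 (GRCm39) within 104243 bases (34527932 to 34632174). The minus-strand relative Ifit1bl1 lies between Ifit3 and Ifit3b, and Ifit1bl2 overlaps Ifit1 on the other strand. These are not among the 44 genes and did not pass, with log2 fold changes of -0.37 and -0.59 (adjusted p = 0.4 and 0.071). Ifit3 had 10.9, 12.1 and 10.6 CPM in control and 22.4, 22.7 and 24.1 CPM in cisplatin. The libraries of each group were close together and the groups far apart (2.06-fold, log2 1.04 ± 0.0961, adjusted p = 1.1e-05). Ifit3b had 4.16, 4.53 and 3.99 CPM in control and 10.9, 9.15 and 9.86 CPM in cisplatin (2.36-fold, adjusted p = 2.2e-05).

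Ifit3 and Ifit3b are near-identical copies whose promoters share a run of 169 bases, and only read pairs with 1 place in the genome were counted, so the split between them is uncertain. Their sum was 15.4 ± 1.08 CPM in control and 33.0 ± 1.09 CPM in cisplatin, a ratio of 2.14. Ifit2 had 14.1, 14.4 and 14.3 CPM in control, the narrowest spread of the family, and 18.4, 19.8 and 27.5 CPM in cisplatin. It rose by 1.53-fold (log2 0.61 ± 0.143, adjusted p = 0.0050), with cisplatin replicate 3 well above the other two. Ifit1, which has the same ISRE letters as Ifit3, had 4.75, 5.06 and 4.66 CPM in control and 4.58, 4.22 and 6.94 CPM in cisplatin. Here 2 of 3 cisplatin libraries were below all controls and replicate 3 above them (log2 0.11 ± 0.188, adjusted p = 0.66).

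Of the OAS family, whose enzymes make a nucleotide messenger upon binding double-stranded RNA, 1 of 5 tested genes rose, against 24.5% of all genes. Oasl1, a catalytically inactive relative that restrains translation of Irf7, had 0.967, 1.51 and 1.35 CPM in control and 2.41, 3.25 and 2.44 CPM in cisplatin. The groups did not overlap (2.14-fold, log2 1.10 ± 0.225, adjusted p = 0.0024). Its neighbour Oasl2 stood at 5.74 ± 0.228 CPM in control and 6.45 ± 0.183 CPM in cisplatin. There too every cisplatin library was above every control, but the difference did not pass (log2 0.17 ± 0.116, adjusted p = 0.25).

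Oas1a, Oas1g, Oas2 and Oas3 were scarce. Oas1a and Oas1g, which are close copies, together gave 1.56 ± 0.129 CPM in control and 1.503 ± 0.107 CPM in cisplatin. Neither passed alone (adjusted p = 0.65 and 0.24). Oas2 had 1.05, 0.243 and 0.673 CPM in control and 0.758, 0.402 and 0.436 CPM in cisplatin (adjusted p = 0.59). Oas3, with 3 to 11 counts per library, was not tested. Eif2ak2 encodes PKR, the kinase that stops translation when it binds double-stranded RNA. It had 17.3, 17.4 and 19.2 CPM in control and 21.7, 22.3 and 21.9 CPM in cisplatin, a rise of 1.22-fold (log2 0.29 ± 0.0885, adjusted p = 0.021). The call was lost without control replicate 1 or 2 or cisplatin replicate 2 (adjusted p up to 0.096).

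The viperin locus moved the other way. Rsad2 encodes viperin, an enzyme that makes a chain-terminating nucleotide against viral polymerases, and lies on the minus strand of chromosome 12 (26492745 to 26506451). Its CPM were 32.2, 34.5 and 33.9 in control and 17.8, 16.1 and 19.2 in cisplatin. The groups were well separated, and the level fell by 47.3% (log2 -0.92 ± 0.0940, adjusted p = 2.2e-05). Cmpk2, a mitochondrial nucleotide kinase, starts 12751 bases away in the opposite orientation (26519203 to 26529836). It had 12.3, 13.8 and 13.3 CPM in control and 8.57, 8.41 and 10.6 CPM in cisplatin, and fell by 30.3% (log2 -0.52 ± 0.119, adjusted p = 0.0046).

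Both genes were lower in every cisplatin library, but with library totals Rsad2 kept its call (log2 -0.50) and Cmpk2 did not (log2 -0.10). Per kilobase of exon, Rsad2 was among the most abundant of the 44 genes in control kidney, at 7.73 CPM per kb, after Ifitm3 at 13.9 CPM per kb. In cisplatin Rsad2 stood at 4.08 and Ifitm3 at 20.7 CPM per kb. The genes of the Mx GTPases, proteins that trap viral nucleocapsids, are annotated as transcribed pseudogenes in the RefSeq table and as protein-coding in GENCODE vM39. Mx1 had 5 to 22 counts per library and a log2 fold change of 0.59 ± 0.400 (adjusted p = 0.25), and Mx2 16 to 30 counts and -0.06 ± 0.316 (adjusted p = 0.89).

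All 3 membrane restriction factors rose, against 24.5% of all genes tested. Ifitm1, whose product hinders fusion of viruses at the cell surface, had 3.62, 3.07 and 3.51 CPM in control and 9.30, 6.13 and 7.94 CPM in cisplatin. The cisplatin libraries varied but all lay above the controls (2.29-fold, log2 1.19 ± 0.173, adjusted p = 0.00025). Ifitm3, which acts in endosomes, had 16.1, 18.6 and 18.7 CPM in control and 26.8, 27.7 and 25.0 CPM in cisplatin (1.49-fold, adjusted p = 0.00062). Bst2 encodes tetherin, which holds budding virions at the membrane. It went from 8.21 ± 0.787 to 11.0 ± 0.437 CPM (1.34-fold, adjusted p = 0.0097), with no overlap between the groups, and its adjusted p was 0.057 without control replicate 3.

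**Figure D2:**
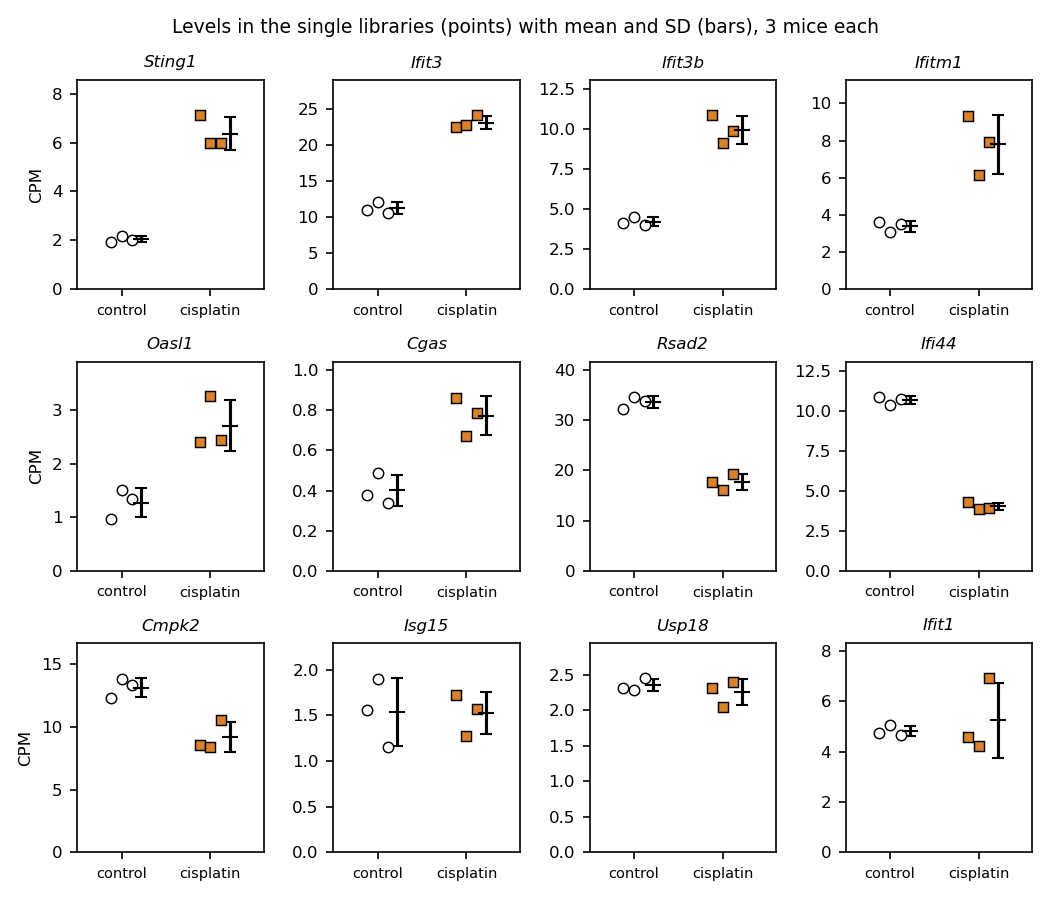
CPM (y axis, from 0) of 12 genes in the single libraries, with open circles for the 3 control mice, orange squares for the 3 cisplatin mice, and the mean with its SD beside each group. Sting1, Ifit3, Ifit3b, Ifitm1, Oasl1 and Cgas were higher in all cisplatin libraries, Rsad2, Ifi44 and Cmpk2 lower in all, and Isg15, Usp18 and Ifit1 overlapped.

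The guanylate-binding proteins (GBP) and immunity-related GTPases (IRG), typical targets of interferon gamma that act on vacuoles of intracellular pathogens, were mixed. Of 7, Gbp2, Gbp3, Gbp7 and Irgm1 rose, where 24.5% of all genes tested did. Gbp2 had 12.6, 12.6 and 9.62 CPM in control and 18.6, 17.0 and 17.3 CPM in cisplatin, a rise of 1.52-fold (log2 0.60 ± 0.119, adjusted p = 0.0019). Gbp3 went from 7.08 ± 1.58 to 9.73 ± 0.738 CPM (1.38-fold, adjusted p = 0.032). Irgm1, a regulator of the other IRG proteins, went from 29.7 ± 4.76 to 37.0 ± 1.65 CPM (1.25-fold, adjusted p = 0.039). For Gbp7 (1.37-fold, adjusted p = 0.022) the groups touched, since control replicate 2 reached 17.4 CPM and cisplatin replicate 1 stood at 17.3 CPM. Gbp3, Gbp7 and Irgm1 lost their calls without control replicate 1 or 3 or cisplatin replicate 2, and Gbp3 and Irgm1 also without cisplatin replicate 3 (adjusted p up to 0.14, 0.10 and 0.19).

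Igtp and Iigp1 went in the other direction without passing. Igtp had 10.6, 14.7 and 7.41 CPM in control and 8.92, 8.24 and 7.85 CPM in cisplatin (log2 -0.39 ± 0.202, adjusted p = 0.14). Iigp1 had 15.9, 18.4 and 10.003 CPM in control and 13.8, 11.3 and 11.5 CPM in cisplatin (adjusted p = 0.25). The controls of both spread more widely than the cisplatin libraries, and without control replicate 3 both passed as lower (adjusted p = 0.014 and 0.017). Ifi47 had 3.78 ± 0.791 and 3.51 ± 0.966 CPM (adjusted p = 0.71).

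Among the remaining 6 genes, Ifi44 fell most. This gene, long used as a marker of the interferon response, had 10.9, 10.4 and 10.8 CPM in control and 4.30, 3.89 and 3.97 CPM in cisplatin. Both groups were tight, and the level fell by 62.1% (log2 -1.40 ± 0.114, adjusted p = 5.1e-06). Parp14, a mono-ADP-ribosyltransferase, had 21.3, 24.4 and 19.7 CPM in control and 34.95, 30.2 and 26.5 CPM in cisplatin, with all cisplatin libraries higher (1.40-fold, adjusted p = 0.0069). Ifi27 went from 14.95 ± 0.792 to 18.8 ± 1.19 CPM (1.25-fold, adjusted p = 0.016), and lost the call without control replicate 1 or 3 (up to 0.084).

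Ifi35, Xaf1 and Rtp4 did not pass. Ifi35 had 7.94 ± 0.740 and 9.53 ± 1.46 CPM in control and cisplatin (adjusted p = 0.15), and Xaf1, a partner of the apoptosis inhibitor XIAP, 3.33 ± 0.708 and 3.70 ± 0.359 CPM (adjusted p = 0.50). Rtp4 had 3.57, 3.75 and 3.75 CPM in control and 3.44, 2.78 and 3.49 CPM in cisplatin, so that all cisplatin libraries were lower by a small margin (log2 -0.19 ± 0.153, adjusted p = 0.32).

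The genes that did not pass were the scarcer ones. Their mean over all libraries had a median of 3.46 CPM, against 15.7 CPM for the 20 that rose, and 8 of 19 against 2 of 20 lay under 2 CPM. The SE of the log2 fold change reached 0.460 among them, so that differences of the size of most rises were not detectable in the scarcest genes. This did not hold for all of them. The smallest SE were those of Oasl2, Trim30a, Stat2 and Ifi35, at 0.116, 0.129, 0.133 and 0.138.

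Control replicate 2 stood apart from the other controls in these genes. It was the highest of the 3 control libraries in 33 of 43 genes (76.7%), where it was the highest in 35.4% of all genes tested, and in all 7 GBP and IRG genes. The genes together summed to 396, 447 and 379 CPM in control and to 474, 454 and 466 CPM in cisplatin. Without control replicate 2 the median log2 fold change of the genes was 0.38, and 19 were higher and 4 lower. Left out in turn, control replicates 1 and 3 each took the number that were higher to 10, and cisplatin replicate 2 to 13. Over all genes tested, 3079, 3000 and 3233 were higher in those fits, in that order, against 3841 with all libraries. Without control replicate 2, 3076 of all genes were higher and 2974 lower.

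**Figure D3:**
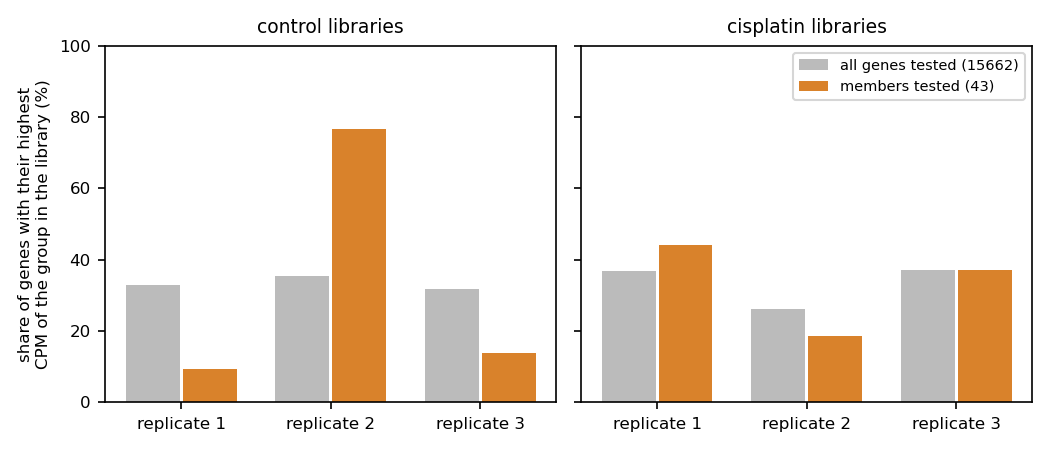
Bars give the share of genes (%) whose highest CPM within a group was in the library named on the x axis, for all 15662 genes tested (grey) and the 43 interferon-stimulated genes (orange). Among the controls the bar of the interferon-stimulated genes reached 76.7% for replicate 2 against 35.4% of all genes, and among the cisplatin libraries it followed all genes more closely.

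The interferons themselves were at or near 0. Of 21 interferon genes, 20 had 0 counts in every library, and Ifng had 1 count in control replicate 2. A count of 0 allows up to 0.126 to 0.146 CPM in a control library and 0.101 to 0.131 CPM in a cisplatin library (3 counts, counting error only). Markers of plasmacytoid dendritic cells, a main source of type I interferon, did not reach the filter in any of 4 genes and summed to 0.925 to 1.35 CPM in control and 0.585 to 0.704 CPM in cisplatin. Within that sum Cox6a2 had 7, 17 and 19 counts in control and 5, 3 and 2 in cisplatin, Pacsin1 had 6, 4 and 4 against 9, 11 and 8, and Siglech and Ccr9 had 1 to 5 counts in each library.

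Downstream of the ligands, 5 of 14 tested receptor and JAK-STAT genes rose (35.7%, against 24.5% of all genes tested) and none fell (against 22.8%). Ifngr1, the ligand-binding chain of the interferon gamma receptor, had 25.3, 21.6 and 22.3 CPM in control and 43.0, 45.1 and 42.2 CPM in cisplatin (log2 0.91 ± 0.0899, adjusted p = 1.7e-05). The second chain, Ifngr2, rose as well (log2 0.57, adjusted p = 0.0003), as did Ifnlr1 of the lambda interferon receptor (log2 0.59, adjusted p = 0.026). The chains of the type I receptor did not pass, with log2 fold changes of 0.19 for Ifnar1 (adjusted p = 0.064) and 0.14 for Ifnar2 (adjusted p = 0.31).

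The 2 largest differences in this list were those of Socs3 and Stat3. Socs3, a feedback inhibitor induced by STAT3, had 1.56, 1.61 and 1.49 CPM in control and 12.4, 12.6 and 8.64 CPM in cisplatin (log2 2.86 ± 0.186, adjusted p = 1e-06). Stat3, which relays IL-6 family cytokines, had 38.8, 41.5 and 40.8 CPM in control and 96.2, 96.2 and 72.2 CPM in cisplatin (log2 1.13, adjusted p = 2.3e-05). Il10rb, Jak1, Jak2, Tyk2, Ptpn2 and Pias1 lay between log2 -0.14 and 0.22 and did not pass, and Socs1 was not tested, at 3 to 11 counts.

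Of the genes that sense nucleic acids or act upstream of interferon, 8 of 23 tested were higher (34.8%, against 24.5% of all genes tested) and 3 lower (13.0%, against 22.8%). Ikbke, a kinase of IRF3 and IRF7, had 2.77, 2.58 and 1.92 CPM in control and 7.16, 6.70 and 5.15 CPM in cisplatin (log2 1.38, adjusted p = 0.00014). Tlr7, the endosomal receptor of single-stranded RNA, had 1.81, 1.41 and 2.50 CPM in control and 7.09, 4.26 and 5.15 CPM in cisplatin (log2 1.53, adjusted p = 0.00048).

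Rigi, Tlr4, Unc93b1, Myd88 and Adar rose by log2 0.58, 0.87, 0.69, 0.34 and 0.36. The genes that fell were Irf5 (log2 -0.96, adjusted p = 3.9e-05), the ribonuclease H2 subunit Rnaseh2b (log2 -0.51, adjusted p = 0.0056) and Irf3 (log2 -0.28, adjusted p = 0.020). Mavs, Tlr3, Ticam1, Tlr9, Tbk1, Traf3, Traf6, Irf2, Irf8, Samhd1, Rnaseh2a and Rnaseh2c did not pass and lay between log2 -0.38 and 0.34. Trex1 had 0 counts in every library. Ambiguous pairs were left out of the counts, and whether that removed pairs of Trex1 was not tested.

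A broader list held 74 further interferon-stimulated genes. Of these, 72 were found in the annotation and 66 were tested, with 18 higher (27.3%), 10 lower (15.2%) and a median log2 fold change of -0.02, where 24.5% of all genes tested were higher, 22.8% were lower and the median was 0.05. The smallest adjusted p among those that rose belonged to the chemokine Cxcl10, with 2.73, 3.17 and 2.45 CPM in control and 6.37, 6.97 and 7.11 CPM in cisplatin (log2 1.29, adjusted p = 4.1e-05). Epsti1 (log2 1.27, adjusted p = 0.00012), Oas1c (log2 1.26, adjusted p = 0.0002) and Slfn2 (log2 0.83, adjusted p = 0.00043) followed.

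Among those that fell, Gbp10 had 1.51, 1.66 and 0.914 CPM in control and 0.172, 0.134 and 0.131 CPM in cisplatin (log2 -3.17 ± 0.371, adjusted p = 5.7e-05). The cisplatin values rest on 3 to 5 counts per library, and Gbp10 has close copies that can share its reads. Tgtp2, an IRG protein with a close copy in Tgtp1, had 3.70, 7.50 and 3.85 CPM in control and 2.20, 1.74 and 1.53 CPM in cisplatin (log2 -1.44, adjusted p = 0.0018). Samd9l fell from 249 ± 4.66 to 166 ± 29.8 CPM (log2 -0.59, adjusted p = 0.0025), and Gbp4 by 0.95 on the log2 scale (adjusted p = 0.0040). Control replicate 2 was the highest control in all 4 of these genes.

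**Figure D4:**
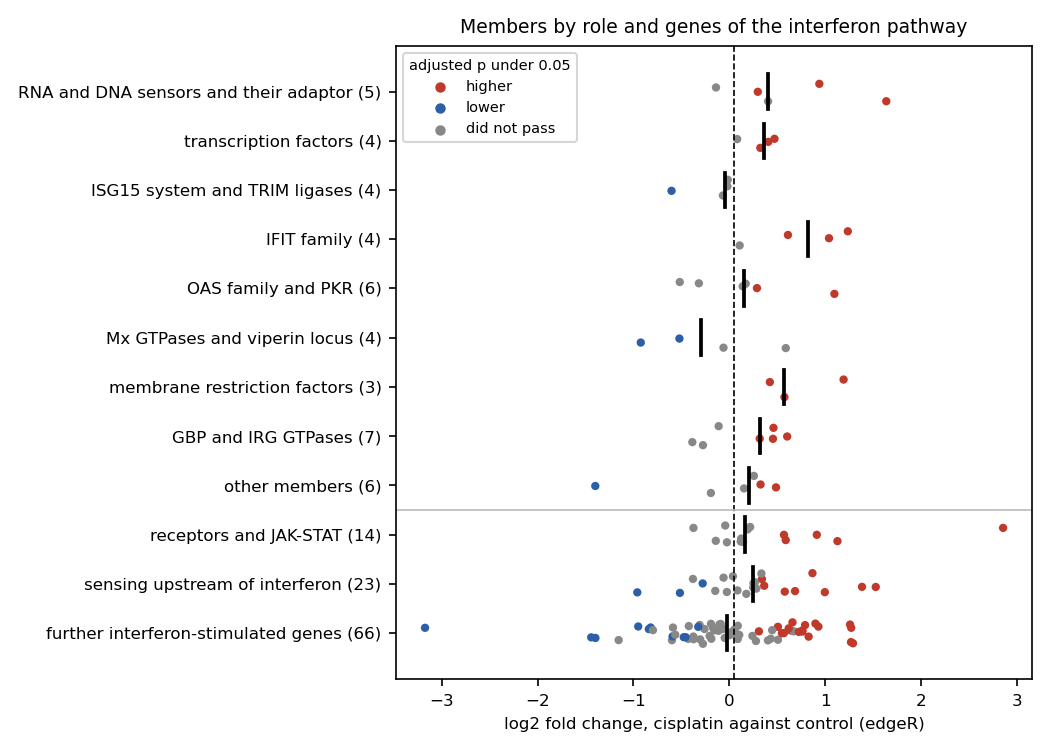
Log2 fold change of cisplatin against control (x axis) for each tested gene, in rows by role for the 43 genes (above the grey line) and by pathway list (below it), with the number tested in parentheses. Red points were higher and blue points lower at an adjusted p under 0.05, grey points did not pass, black bars are list medians, and the dashed line at 0.05 is the median of all genes tested. The IFIT and membrane factors sat to the right of that line and the ISG15 and TRIM row to its left, while the viperin row was split, with Rsad2 and Cmpk2 to the left.

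Markers of other cell types in the kidney also differed between the groups, where 24.5% of all genes tested rose and 22.8% fell. Of 10 markers of leukocytes and macrophages, 9 rose, and their sum was 102 to 127 CPM in control and 297 to 358 CPM in cisplatin, a ratio of 2.81. The single markers ranged from a log2 fold change of 0.20 for Csf1r, which did not pass, to 2.59 for Lyz2. Of 13 T and NK cell markers 5 were tested and 3 rose, with sums of 2.69 to 4.33 and 4.89 to 6.37 CPM. Of 6 neutrophil markers 2 were tested and both rose (1.81 to 1.95 and 3.20 to 3.80 CPM), while Ly6g and Mpo had 0 counts throughout.

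Of 6 B and plasma cell markers 3 were tested, and Ighm rose while Jchain fell. The 8 endothelial markers summed to 317 to 327 CPM in control and 229 to 276 CPM in cisplatin, with 3 lower and none higher. In the proximal tubule 9 of 10 markers fell and none rose. The part of these cell types in the differences of the interferon-stimulated genes was not tested.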

How the data were processed

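Total RNA of 6 kidneys was sequenced as stranded, paired-end libraries. The authors trimmed adapters with Cutadapt, aligned read pairs to mm39 with STAR and deposited raw counts per gene and library. How STAR was set, and on which annotation, is not given in the sources used here. STAR counts only pairs with 1 place in the genome. The column of the transcript strand was used, and rows of unmapped, multiply mapped, unassigned and ambiguous pairs (2.72% to 3.57%, 11.5% to 12.9%, 4.63% to 9.32% and 1.20% to 2.01%) were left out.

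Gene names came from GENCODE vM39, which named 56017 of 56691 genes. Genes were filtered with filterByExpr (minimum count 10, minimum total 15), scaled by TMM and tested in edgeR 4.0.16 (glmQLFit, R 4.3.3) with Benjamini-Hochberg adjustment over all genes at 0.05, 3 against 3 mice. The fit was tested on simulated data. Alternatives included DESeq2 (version 1.42.0 here), the package the study used, limma-voom 3.58.1, other scalings and filters, a replicate block and leaving out each library. The block was not the main design, since the labels do not say that a number marks a shared day or litter. In their deviations from the group means, libraries of the same number correlated at 0.133, 0.142 and 0.0997. Those of different numbers correlated at -0.126 to -0.0259. All 44 genes and every tested gene of the first 3 pathway lists were to be named, of which 2 pathway genes are not reported here, and of the further interferon-stimulated genes the 4 smallest adjusted p in each direction. Members and lists were chosen with earlier results of these data known.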

Additional observations from a re-analysis of the deposited data

How the results depend on the processing

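The set was recomputed under 18 alternatives per gene. Of the 24 genes called, 7 kept their call in all in which they were tested (Sting1, Ifit3, Ifit3b, Ifitm1 and Oasl1 higher, Rsad2 and Ifi44 lower), and 13 in every fit that left out 1 library. Ifih1, Cgas, Irf9, Irf1, Irf7, Eif2ak2, Gbp3, Gbp7, Irgm1, Ifi27 and Bst2 lost theirs in at least 1 such fit. The number higher was 13 with DESeq2, 10 at an adjusted p under 0.01, 5 when tested against a fold change of 1.5, and 10 to 19 with 1 library left out. The number lower was 2 with library totals, 2 against a fold change of 1.5, and 4 to 6 with 1 library left out. Trim30a alone reversed, with a log2 fold change of 0.40 (adjusted p = 0.018) under library totals, where the median of all genes was 0.48. The median of the set was 0.38 with upper-quartile factors and 0.72 with library totals, where the medians of all genes were 0.14 and 0.48, and 0.23 to 0.38 with 1 library left out. Over all genes, 8508 were higher and 1375 lower with library totals, and 1396 and 1114 against a fold change of 1.5. DESeq2 gave 3086 of all genes higher and 3480 lower, and an adjusted p under 0.01 gave 2570 and 2565. With 1 library left out, 3000 to 4045 of all genes were higher and 2902 to 4180 lower. The main fit gave 3841 and 3578.

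In the pathway lists, library totals gave 12 of 14 receptor and JAK-STAT genes higher and 15 of 23 upstream genes higher and 1 lower. Of 66 further interferon-stimulated genes, 29 were higher and 2 lower. On that scale 8508 of all 15662 genes were higher and 1375 lower. Against a fold change of 1.5 the counts of the lists were 3, 4, 1, 4 and 2, and those of all genes 1396 and 1114. Upper-quartile factors gave 13 upstream genes higher, and 4774 of all genes, against 3841 with TMM. Among receptor and JAK-STAT genes 1 was lower with DESeq2, with DESeq2 size factors and with no filter on low counts, and 0 to 1 with 1 library left out. Of the further genes 5 were lower at an adjusted p under 0.01, and 6 to 12 with 1 library left out, the fewest without control replicate 2 or control replicate 3. That count was 15 with no filter on low counts and 15 with the replicate block, against 10. Of all genes, 3872 were lower with no filter and 3796 with the block, against 3578. With the replicate number as a block 20 genes of the set were higher and 4 lower, and no call of the set changed. The labels do not say that a number marks a shared day or litter, and 1 of 3 correlations was under 0.1, although every library correlated best with its own number. The ISRE core was 14.4 times as frequent among these genes as among all genes, and 120 times where CT had to follow the second GAAA. Causes of these shifts were not tested. With 3 mice per group, and 5 to 50 counts per library in scarce genes such as Isg15, Mx1 and Oas2, small differences were not detectable.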

Other observations

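On the opposite strand of Usp18, which is outside the counts used, the control libraries held 10, 15 and 17 read pairs and those of the cisplatin mice 27, 42 and 17. The groups met at 17 pairs, and no test was made.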
